A study of Mus musculus with 24 samples.

Results

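The effect of cisplatin in the kidney of mice that had received CBLB502 was measured in 6 RNA-seq libraries of the 24 in the series. All came from C57BL/6 mice. The combination group (3 libraries) received CBLB502 at 0.2 mg/kg and, 30 min later, cisplatin at 20 mg/kg, both labelled as intraperitoneal, and the kidney was taken at 72 h. The CBLB502 group (3 libraries) received the agonist without cisplatin, and its kidneys carry the same time label of 72 h. Both groups therefore share the agonist and differ in cisplatin, and no untreated library enters the comparison. The labels give no age or sex. They do not say whether each library is a separate animal, so the p-values speak only of the variation among these 6 libraries, and some of it may be technical.

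Cisplatin is a platinum compound that crosslinks DNA. Its dose is limited by the kidney, where the proximal tubule takes it up from the blood through organic cation transporters and is injured, with DNA damage signalling through p53, mitochondrial damage, inflammation and cell death. CBLB502 (entolimod) is a shortened flagellin that activates Toll-like receptor 5 (TLR5) and through it the transcription factor NF-kB, and it has been studied as a protector of tissue against radiation and cytotoxic drugs.

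Levels are given in CPM, counts scaled to library size, for libraries 4, 5 and 6 of each group, the numbers in the deposited column names. Log2 fold changes are combination over CBLB502, ± SE. Adjusted p values come from the quasi-likelihood test of edgeR, adjusted after Benjamini and Hochberg over all 19266 genes tested. Each SE was derived from the F of that test, as the absolute log2 fold change divided by the square root of F. It was not estimated separately. A gene is said to rise or fall when its adjusted p was under 0.05. Of the genes tested, 4605 were higher (23.9%) and 4891 lower (25.4%) in the combination, so that 49.3% were called in either direction, and counts in the gene groups below are to be read against these shares. The median log2 fold change of all genes was -0.08. Among the genes called, 2116 were higher by at least 2-fold and 2635 lower, and 453 were higher by at least 4-fold and 1152 lower.

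The 2 groups of libraries also differed as libraries. Depth was 70.48, 71.13 and 76.5 M counts in the combination against 56.92, 54.09 and 58.25 M in CBLB502, and mitochondrial genes took 7.487 to 7.801% of counts in the combination against 13.27 to 14.219% in CBLB502. Fold change fell with gene length (Spearman rho -0.36 across 19263 genes, which are not independent replicates). In the shortest decile of genes the median log2 fold change was 0.63, with 31.8% called higher and 6.69% lower. In the longest decile it was -0.61, with 5.81% called higher and 57.0% lower. In liver the corresponding rho was -0.07. Depth, mitochondrial share and the length trend all split the libraries as the treatment does, so their part and that of cisplatin cannot be told apart from these libraries alone. A fit that removed each library's trend on length left a rho of 0.05 and kept 70.3% of the calls, with 4380 genes higher (22.7%) and 4060 lower (21.1%) and 55 called in the opposite direction. Its values are given beside the lists below as the fit without the length trend. The shares of the cell cycle, proximal tubule transporter, organic cation transporter, thick ascending limb, principal cell, interferon, metal, fatty acid synthesis and clock lists lay within 10 percentage points of those over all genes in both directions, so the counts of these lists alone are no result about them.

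**Figure D1:**
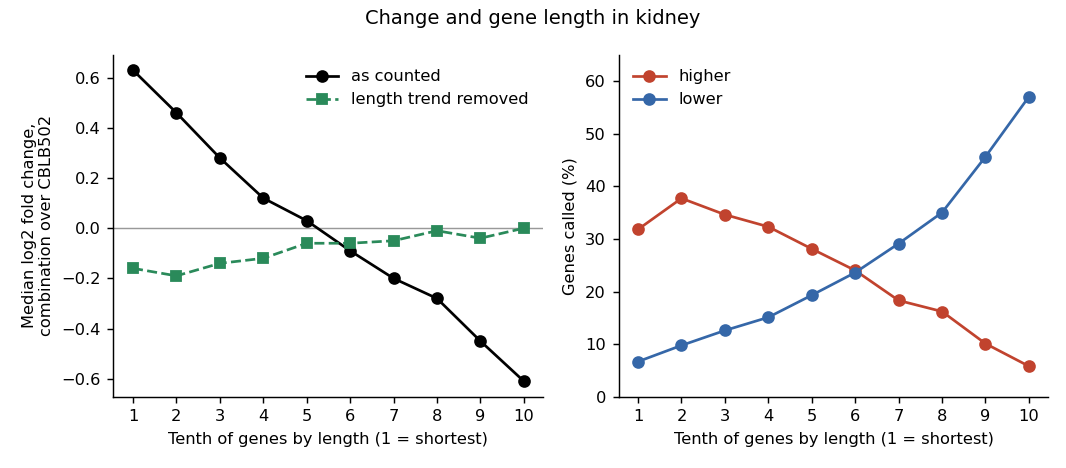
Genes are split into 10 length classes (1 shortest, 10 longest); the left panel plots the median log2 fold change of each class, combination over CBLB502, as counted and with the length trend removed, and the right panel the percentage of genes called higher or lower. The median runs from 0.63 in the shortest class to -0.61 in the longest as counted, and stays between -0.19 and 0.00 with the trend removed.

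Nephron markers were measured in all 6 libraries, with Umod of the thick ascending limb at 896, 1962 and 1923 CPM in the combination and 3406, 2870 and 1988 CPM in CBLB502, and Slc22a6 of the proximal tubule at 842, 696 and 731 CPM and 514, 643 and 893 CPM. Tlr5, the receptor of CBLB502, was barely measured, at 0.124, 0 and 0 CPM in the combination and 0.511, 0.0669 and 0.082 CPM in CBLB502. It did not pass the filter on low counts and was not tested.

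Targets of p53 rose in most cases. Cdkn1a (ENSMUSG00000023067, chromosome 17, bases 29090976 to 29100727), which encodes p21 and halts the cell cycle downstream of p53, stood at 330.3, 274 and 274 CPM in combination kidneys, against 7.33, 5.15 and 5.75 CPM in CBLB502 kidneys. The lowest combination library was far above the highest CBLB502 library, a 48.2-fold difference of means (log2 fold change 5.59 ± 0.17, adjusted p = 5.89e-06). Of 29 p53 target genes tested, 24 rose and 1 fell, with a median log2 fold change of 1.72 and of 1.71 without the length trend, where 23 rose and 1 fell. Psrc1, whose product binds microtubules, was at 16.5, 10.3 and 13.7 CPM in the combination and 0.62, 0.451 and 0.738 CPM in CBLB502 (log2 fold change 4.48 ± 0.281, adjusted p = 2.78e-05). Plk3, a polo-like stress kinase, was at 91, 62.2 and 47.5 CPM and 5.56, 3.44 and 5.43 CPM in the same order (log2 fold change 3.8 ± 0.285, adjusted p = 4.43e-05). In both genes every combination library lay above every CBLB502 library, by 22.3-fold and 13.9-fold in the means.

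Growth arrest, death and cytokine genes of the p53 group were among those that rose. Btg2, an antiproliferative gene, had a log2 fold change of 3.22, Gdf15, a secreted stress cytokine, 3.6, and Phlda3, an inhibitor of AKT signalling, 3.73. The proapoptotic Bax rose as well (116, 122 and 96.6 CPM in the combination, 31.1, 26.2 and 37 CPM in CBLB502, log2 fold change 1.83 ± 0.147, adjusted p = 5.59e-05). These 4 were named after their values were seen. Mdm2, the ubiquitin ligase through which p53 is degraded, did not follow: it was at 57.1, 39.95 and 47.1 CPM in the combination and 50.5, 36.5 and 42.9 CPM in CBLB502, the groups overlapped, and the test was not passed (log2 fold change 0.15 ± 0.16, adjusted p = 0.464). The single member that fell was Rrm2b, a ribonucleotide reductase subunit (log2 fold change -0.75 ± 0.111, adjusted p = 0.000897).

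**Figure D2:**
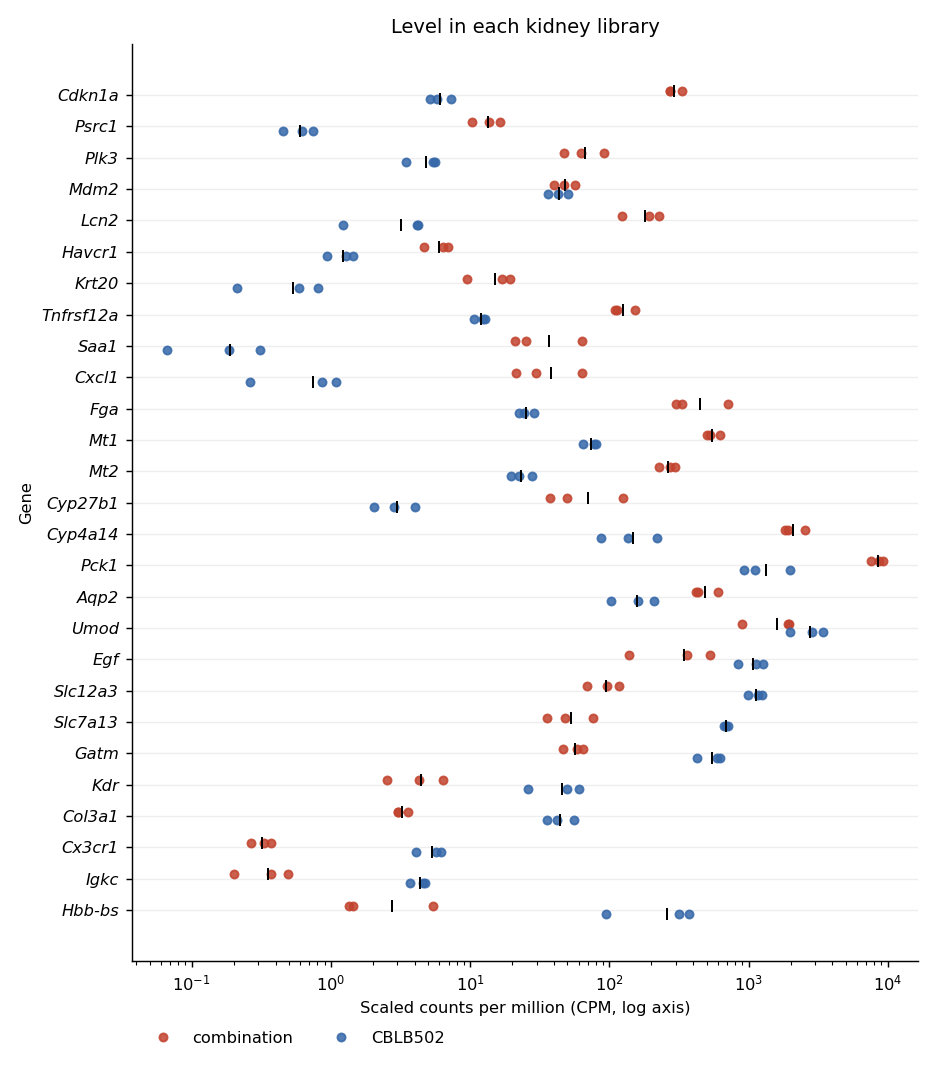
Level of 27 genes in each kidney library, on a log axis in CPM, where each point is a library, with combination above CBLB502 within each gene and a black tick at the group mean. The groups are far apart for Cdkn1a (273.8 to 330.3 CPM against 5.149 to 7.327 CPM) and overlap for Mdm2 (39.95 to 57.08 CPM against 36.51 to 50.45 CPM).

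DNA repair and proliferation genes did not move as a block. Of 27 tested genes of crosslink, excision and translesion repair, 5 rose and 4 fell (median log2 fold change -0.08, 0.09 without the length trend, where 7 rose and 1 fell). Both shares (of 27) lie below those over all genes. Log2 fold changes in the list ran from -3.64 to 2.15, and the members named next all rose. Mad2l2, which encodes the REV7 subunit of translesion polymerase zeta, was the most raised, at 35.7, 43.1 and 38.3 CPM in the combination against 9.56, 8.54 and 8.29 CPM in CBLB502 (log2 fold change 2.15 ± 0.118, adjusted p = 2.07e-05). Fance of the Fanconi core complex and Ercc1, the partner of the XPF nuclease, rose 2.38-fold (adjusted p = 0.000192) and 1.75-fold (adjusted p = 0.00587). Without CBLB502 library 5 the counts of the list were 3 higher and 2 lower, and with the 12 or the 9 treated kidney libraries of the series fitted together 3 higher and 0 lower.

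Of 27 cell cycle genes, 4 rose and 7 fell (median -0.25, -0.51 without the length trend, where 5 rose and 5 fell). The proliferation marker Mki67 was at 0.187, 0.509 and 0.472 CPM in the combination and 3.1, 3.19 and 4.13 CPM in CBLB502, with no overlap (log2 fold change -3.15 ± 0.413, adjusted p = 0.000476). Ccnd1, which encodes cyclin D1, fell 2.54-fold to 51.2, 77.2 and 58.3 CPM in the combination, against 145, 185 and 144 CPM in CBLB502 (log2 fold change -1.35 ± 0.169, adjusted p = 0.000392), and Mcm6, a subunit of the replicative helicase, fell 2.44-fold (adjusted p = 0.000139). Tyms, the thymidylate synthase gene, moved the other way, 3.04-fold higher (log2 fold change 1.6 ± 0.144, adjusted p = 8.45e-05). With all 12 kidney libraries of the series fitted together the count of lower genes was 3 and the Ccnd1 call was lost (its highest adjusted p over the alternatives was 0.186).

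Markers of tubular injury rose in most cases. Lcn2 (ENSMUSG00000026822, chromosome 2, bases 32384633 to 32387797), which encodes the siderophore-binding injury marker NGAL, was at 194, 228 and 124 CPM in the combination, against 4.15, 4.25 and 1.23 CPM in CBLB502. All 3 combination libraries were above all 3 CBLB502 libraries, by 56.6-fold in the means (log2 fold change 5.82 ± 0.472, adjusted p = 5.69e-05). Havcr1, which encodes the injury marker KIM-1 of the proximal tubule, was at 4.68, 6.93 and 6.35 CPM in the combination and 1.44, 1.29 and 0.934 CPM in CBLB502 (log2 fold change 2.29 ± 0.273, adjusted p = 0.000296), also without overlap. Its call was lost with all 12 kidney libraries fitted together (adjusted p = 0.061) and with the 9 treated ones (adjusted p = 0.0985). Of 20 tubular injury genes tested, 14 rose and 3 fell (median 1.79, 1.58 without the length trend, where 14 rose and 2 fell), with 9 higher in the fit of 12 kidney libraries. Tnfrsf12a, the receptor of the cytokine TWEAK, stood at 114, 152 and 109.5 CPM in the combination and 12.3, 10.7 and 12.7 CPM in CBLB502, 10.5-fold higher (log2 fold change 3.39 ± 0.153, adjusted p = 1.22e-05). The members that fell were Vcam1, Cd44 and Vim (log2 fold change -1.18, -1.1 and -0.72), genes that endothelial, immune or mesenchymal cells also express.

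Keratin and cornified-envelope genes, which squamous epithelia use, included Krt20 and Sprr2g, 2 of the 10 genes named as highest. That ranking required a mean of 5 FPKM or more in whichever group was higher, and genes below that level, such as Sprr2f and Fosl1, are left out of it. Il1f6, an epithelial gene outside that list, which encodes the cytokine IL-36 alpha, had no count in any CBLB502 library and was at 4.0, 5.86 and 8.98 CPM in the combination, at least 388-fold higher against a floor of 3 counts over the group (adjusted p = 9.67e-05). Krt20, an intermediate filament keratin, was at 19.2, 9.43 and 16.9 CPM against 0.589, 0.802 and 0.213 CPM in CBLB502 (log2 fold change 4.82 ± 0.48, adjusted p = 0.000131). Sprr2g, a small proline-rich protein gene, was at 6.3, 5.79 and 7.12 CPM in the combination and 0.232, 0 and 0 CPM in CBLB502, where 2 libraries had no count (log2 fold change 6.29 ± 0.939, adjusted p = 0.000917). CBLB502 library 4 held all counts of its group, so the size of the fold rests on it. Its relative Sprr2f had no count in CBLB502 and 1.76, 1.82 and 0.958 CPM in the combination, at least 93.5-fold higher (adjusted p = 0.000355, lost with 12 kidney libraries at 0.0581 and with the 9 treated ones at 0.0776). Of 14 tested genes of the list, 8 rose and 1, Krt80, fell (median 1.25, 1.03 without the length trend, where 5 rose and 1 fell). The Sprr2 genes are near-identical in stretches, and reads can be split between them.

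Immediate-early genes, the transcription factors and phosphatases that cells switch on within minutes of stress, rose nearly throughout the list. Of 18 tested, 16 rose and the other 2, Fosb and Klf4, did not pass the test (median 1.96, 1.98 without the length trend, where 12 rose and 0 fell). In the fit of 12 kidney libraries 10 rose. Maff, a small partner of the CNC transcription factors, was at 17.8, 19.3 and 13.4 CPM in the combination against 1.07, 1.3 and 0.852 CPM in CBLB502, 15.7-fold higher (log2 fold change 3.97 ± 0.238, adjusted p = 2.56e-05). Fos, a subunit of the AP-1 factor, stood at 10.4, 10.5 and 5.68 CPM and 0.682, 0.736 and 0.459 CPM in the same order (log2 fold change 3.82 ± 0.336, adjusted p = 7.68e-05), and the stress factor Atf3 at 16.3, 17.2 and 14.1 CPM and 1.56, 1.3 and 1.05 CPM (log2 fold change 3.6 ± 0.207, adjusted p = 2.37e-05). None of these 3 genes overlapped between the groups. Fosl1, another AP-1 subunit named after its values were seen because it had no count in CBLB502, was at 0.70, 0.416 and 0.601 CPM in the combination.

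The promoter of Sprr2f is shown because the gene had counts in the combination and none in CBLB502, and AP-1 subunits rose beside it. The stretch is chr3:92364937-92365186 on the plus strand of GRCm38.p6, the 250 bases before the start of the gene in RefSeq, with a match to the AP-1 motif TGANTCA in capitals.
Sprr2f: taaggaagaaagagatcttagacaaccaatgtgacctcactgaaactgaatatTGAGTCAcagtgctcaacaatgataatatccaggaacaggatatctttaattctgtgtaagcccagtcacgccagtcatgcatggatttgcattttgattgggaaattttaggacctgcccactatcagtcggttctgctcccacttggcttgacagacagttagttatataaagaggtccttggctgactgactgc
The match begins 197 bases before the start. On either strand, 6.75% of the 32851 RefSeq promoter windows of 250 bases hold this motif, and a match is a description of the letters, not a shown binding site.

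**Figure D3:**
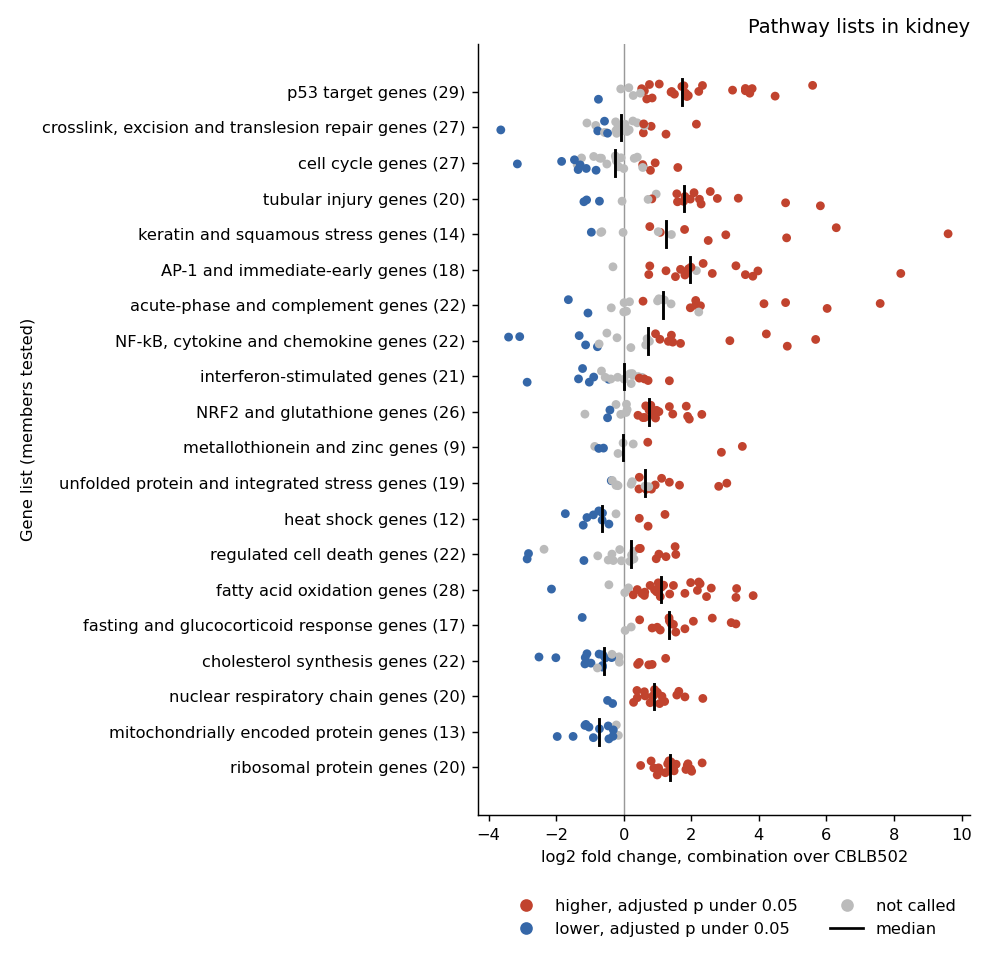
Log2 fold change, combination over CBLB502, of every tested member of 20 pathway lists, where points are genes (red higher and blue lower at an adjusted p under 0.05, grey not called) and black ticks are list medians, with the number of members tested in parentheses. Members of the p53 (median 1.72), tubular injury (1.79), AP-1 (1.96) and ribosomal protein (1.38) lists lie mostly right of 0, and those of the mitochondrially encoded list (-0.72) left of it.

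Acute-phase genes, most of them better known as products of the liver, were among the highest in the kidney too. Saa1, which encodes serum amyloid A1, was at 20.9, 64 and 25.3 CPM in the combination against 0.186, 0.0669 and 0.311 CPM in CBLB502, a 195-fold difference without overlap (log2 fold change 7.59 ± 0.629, adjusted p = 6.09e-05). The fibrinogen chain genes Fgg and Fga were at 259, 718 and 280.5 CPM and 303, 709 and 332 CPM in the combination. In CBLB502 they were at 14.4, 15.6 and 15.5 CPM and 28.9, 24.3 and 22.5 CPM. They rose 27.6-fold (adjusted p = 7.12e-05) and 17.8-fold (adjusted p = 6.06e-05), and combination library 5 was the highest for both and for Saa1. Without it the log2 fold change was 6.93 for Saa1 and 4.16 for Fgg, and without CBLB502 library 6 it was 8.2 for Saa1. Of 22 tested genes of the list 9 rose and 2 fell (median 1.16, 0.94 without the length trend, where 8 rose and 2 fell), with 5 higher in the fit of 12 kidney libraries. Hepatocyte genes, as a sign of liver tissue, summed to 648 to 904 CPM in the combination and 446 to 698 CPM in CBLB502 over 14 genes, and Alb was at 209, 63.4 and 89.5 CPM and 139, 130.4 and 133 CPM (log2 fold change -0.15 ± 0.374, adjusted p = 0.764). Of these 14, 5 rose and 1 fell, and without the length trend 1 and 1. Hamp and Tat were called higher and Cyp3a11 lower at adjusted p values of 0.0383 to 0.048, and leaving out any of the 3 CBLB502 libraries ended each call (highest adjusted p 0.114 for Hamp, 0.136 for Tat and 0.106 for Cyp3a11). Leaving out combination library 4 ended the calls of Hamp and Tat (0.18 and 0.167), library 5 that of Cyp3a11 (0.0683) and library 6 those of Tat and Cyp3a11 (0.065 and 0.122).

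Genes of the NF-kB, cytokine and chemokine list moved both ways. Cxcl1 (ENSMUSG00000029380, chromosome 5, bases 90891241 to 90893115) was at 21.3, 63.5 and 29.6 CPM in the combination, against 1.08, 0.869 and 0.262 CPM in CBLB502, 51.6-fold higher (log2 fold change 5.68 ± 0.582, adjusted p = 0.000148). Its neighbour Cxcl2 reached 1.52, 1.34 and 1.5 CPM in the combination and 0, 0.0669 and 0.082 CPM in CBLB502 (log2 fold change 4.84 ± 0.762, adjusted p = 0.00119). Socs3, the feedback inhibitor of cytokine signalling through STAT3, stood at 17.1, 29.2 and 17.2 CPM and 3.11, 2.17 and 1.92 CPM in the same order (log2 fold change 3.14 ± 0.287, adjusted p = 8.97e-05), and Cxcl10, a chemokine for T cells, at 19.8, 13.8 and 13 CPM and 4.96, 4.83 and 4.74 CPM (log2 fold change 1.68 ± 0.191, adjusted p = 0.000238). In all 4 genes the combination libraries lay above the CBLB502 libraries. Of 22 genes tested 10 rose and 5 fell (median 0.72, 0.68 without the length trend, where 11 rose and 5 fell). The NF-kB inhibitor gene Nfkbia, itself an NF-kB target, had a log2 fold change of 1.41, and the interleukin gene Il1b one of -3.41 at 0.14, 0.231 and 0 CPM in the combination and 1.35, 1.6 and 1.02 CPM in CBLB502. The calls of the 5 members that fell numbered 3 without CBLB502 library 5 and 2 in the fit of 12 kidney libraries.

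No neutrophil marker was called higher in the 6 libraries. Over 15 neutrophil genes the summed level was 0.731 to 3.98 CPM in the combination and 2.93 to 3.16 CPM in CBLB502, and the granule and surface genes Ly6g, Mmp8, Ngp, Camp and Mpo had no count in any of the 6 libraries. Only 5 members passed the filter on low counts, and of these Ltf was called lower and the other 4 did not pass the test. The Ltf call rested on few counts. It was lost with the 12 and with the 9 treated kidney libraries, with no filter on low counts and under the replicate block. The call was also lost when CBLB502 library 4, 5 or 6 or combination library 4 was left out. With the filter of 10 CPM Ltf was not tested, as its level lay below that.

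The promoters of Cxcl1 and Cxcl2 are shown because both genes rose and lie side by side on chromosome 5. Both stretches are on the plus strand of GRCm38.p6, chr5:90890995-90891240 for Cxcl1 and chr5:90903649-90903870 for Cxcl2, from RefSeq, and stop where the deposited gene span begins. Capitals mark matches on either strand to the NF-kB motif, which is GGG, any 2 bases, then TTTCC.
Cxcl1: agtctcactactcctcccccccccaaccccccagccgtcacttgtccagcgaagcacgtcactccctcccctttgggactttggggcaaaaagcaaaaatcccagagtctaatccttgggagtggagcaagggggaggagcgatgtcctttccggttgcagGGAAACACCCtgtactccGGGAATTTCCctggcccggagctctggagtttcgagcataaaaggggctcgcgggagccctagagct
Cxcl2: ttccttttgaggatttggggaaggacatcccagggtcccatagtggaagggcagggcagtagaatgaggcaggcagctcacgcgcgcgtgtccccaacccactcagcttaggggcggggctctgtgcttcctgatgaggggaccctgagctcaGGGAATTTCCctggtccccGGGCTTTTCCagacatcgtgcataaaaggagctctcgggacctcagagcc
The matches begin 89 and 71 bases before the RefSeq start of Cxcl1 and 97 and 78 bases before that of Cxcl2. Of all RefSeq promoter windows of 250 bases, 1.41% hold at least 1 such match and 0.0244% hold 2 or more.

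Interferon-stimulated genes were split. Of 21 tested, 4 rose and 6 fell (median 0.01, -0.25 without the length trend, where 2 rose and 6 fell), and 1 and 2 in the fit of 12 libraries. Both main shares lie near those over all genes. Ifi44 was 7.26-fold lower, at 1.95, 3.59 and 2.35 CPM in the combination and 27.2, 17 and 13.1 CPM in CBLB502 (log2 fold change -2.86 ± 0.334, adjusted p = 0.000267), and the antiviral enzyme gene Rsad2 was 2.53-fold lower (adjusted p = 0.00491). Isg15, a ubiquitin-like modifier, was 2.54-fold higher (adjusted p = 0.0055), but not called without the length trend (adjusted p = 0.181).

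Metallothioneins, small cysteine-rich proteins that bind zinc, copper and platinum, rose strongly. Mt1 was at 624, 525 and 500.4 CPM in the combination against 77.9, 65.2 and 79.7 CPM in CBLB502, and Mt2 at 295, 274 and 225 CPM against 22.3, 19.5 and 27.8 CPM. No library of 1 group reached the other group, and the means differed 7.41-fold for Mt1 and 11.4-fold for Mt2 (log2 fold change 2.89 ± 0.129, adjusted p = 1.22e-05 for Mt1; log2 fold change 3.51 ± 0.166, adjusted p = 1.45e-05 for Mt2). Both are short genes, and without the length trend the log2 fold changes were 2.23 and 2.7. The rest of the metal list was mixed: of 9 tested, with Mt1, Mt2 and the zinc importer gene Slc39a14 as those that rose, 3 rose and 2 fell (median -0.02, 0.39 without the length trend, where 4 rose and 2 fell). Mtf1, the zinc-sensing factor that drives both metallothioneins, was slightly lower (log2 fold change -0.74 ± 0.119, adjusted p = 0.00131), a call lost without the length trend (adjusted p = 0.139).

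Bases before the starts of Mt1 and Mt2 are shown because these genes are known targets of MTF1 at metal response elements. The stretches are chr8:94178839-94179081 and chr8:94172368-94172617 on the plus strand of GRCm38.p6, from RefSeq. Capitals mark the element core, TGCACNC or TGCGCNC, on either strand.
Mt1: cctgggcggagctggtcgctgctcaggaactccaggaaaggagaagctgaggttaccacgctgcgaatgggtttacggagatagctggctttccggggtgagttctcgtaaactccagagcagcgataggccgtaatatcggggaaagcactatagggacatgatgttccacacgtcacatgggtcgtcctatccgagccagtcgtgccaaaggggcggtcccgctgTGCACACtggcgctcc
Mt2: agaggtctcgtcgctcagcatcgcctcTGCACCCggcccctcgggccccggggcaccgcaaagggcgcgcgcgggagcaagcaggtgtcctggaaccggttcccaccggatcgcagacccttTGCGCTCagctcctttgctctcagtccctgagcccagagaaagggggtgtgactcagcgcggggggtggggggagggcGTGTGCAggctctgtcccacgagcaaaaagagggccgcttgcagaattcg
Within the stretches shown, the single match in Mt1 begins 23 bases before its RefSeq start. The 3 matches in Mt2 begin 223, 128 and 50 bases before its own. The Mt1 stretch stops at base 94179081, just before the deposited gene span, and later bases are not shown. The match counts therefore describe these stretches only, and they do not compare how many elements Mt1 and Mt2 have. The RefSeq start of Mt2 (base 94172618) lies before the deposited one (base 94172664). Of all windows, 21.4% hold at least 1 match and 1.26% hold 3 or more.

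Antioxidant and glutathione genes rose in 18 of 26 cases and fell in 2 (median 0.74, 0.55 without the length trend, where 16 rose and 3 fell). Gpx4, which reduces lipid peroxides, was at 2658, 2618 and 2140 CPM in the combination, against 486, 446 and 561 CPM in CBLB502 (log2 fold change 2.31 ± 0.135, adjusted p = 2.41e-05). Nqo1, a quinone reductase and standard target of NRF2, was at 321, 188 and 251 CPM and 77.9, 65.1 and 61.4 CPM in the same order (log2 fold change 1.89 ± 0.194, adjusted p = 0.000146), and the glutathione transferase gene Gsta1 at 20.1, 13.9 and 32.8 CPM and 6.23, 7.14 and 3.98 CPM (log2 fold change 1.94 ± 0.336, adjusted p = 0.0019). The groups did not overlap in any of these 3. Hmox1, the haem oxygenase gene, rose less, to 58.7, 57.1 and 72.2 CPM in the combination against 31.1, 29.6 and 42 CPM in CBLB502 (log2 fold change 0.87 ± 0.155, adjusted p = 0.00219). Its call was lost with 12 kidney libraries (adjusted p = 0.31), with the 9 treated ones (adjusted p = 0.387) and without the length trend (adjusted p = 0.0684). In the fit of 12 kidney libraries 11 of the list rose.

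Of 19 tested genes of the unfolded protein and integrated stress responses, 10 rose and 1, Hsp90b1, fell (median 0.63, 0.15 without the length trend, where 7 rose and 2 fell), with 4 higher in the fit of 12 kidney libraries. The Hsp90b1 call was lost with no filter, with the 12 and with the 9 kidney libraries, without CBLB502 library 4 or 6 and without combination library 5 or 6. The serine synthesis gene Psat1 was at 173, 269.9 and 185 CPM in the combination and 17.9, 25 and 33 CPM in CBLB502, 8.27-fold higher (log2 fold change 3.05 ± 0.257, adjusted p = 6.55e-05). Chac1, which degrades glutathione, and Ppp1r15a, which restores translation after stress, rose 7.05-fold (adjusted p = 0.00191) and 3.14-fold (adjusted p = 3.03e-05). The chaperone Hspa5 was not called (log2 fold change -0.21 ± 0.173, adjusted p = 0.336). Heat shock genes went the other way, with 8 of 12 lower and 3 higher (median -0.64, -0.74 without the length trend, where 1 rose and 8 fell) and 4 lower in the fit of 12 libraries. Hsph1, a cofactor of HSP70, was at 52.5, 58.8 and 59.6 CPM in the combination and 202, 159 and 206 CPM in CBLB502 (log2 fold change -1.73 ± 0.12, adjusted p = 3.72e-05), Hspa1b was 2.3-fold lower (adjusted p = 0.000136) and the small chaperone gene Hspb8 2.32-fold higher (adjusted p = 0.00142).

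Among 22 genes of regulated cell death 7 rose and 3 fell (median 0.2, 0.16 without the length trend, where 8 rose and 5 fell), with 3 higher in the fit of 12 libraries. The survival gene Bcl2l1, which encodes BCL-xL, was at 215, 219.7 and 238 CPM in the combination and 84.9, 80.2 and 69.8 CPM in CBLB502 (log2 fold change 1.52 ± 0.101, adjusted p = 3.25e-05), and Acsl4, a lipid enzyme needed for ferroptosis, was at 93.9, 80.2 and 112 CPM and 33.8, 33 and 31.3 CPM in the same order (log2 fold change 1.54 ± 0.126, adjusted p = 5.85e-05). Zbp1, a sensor that can start necroptosis, was 7.06-fold lower at 0.591, 1.62 and 0.386 CPM in the combination against 8.27, 6.32 and 3.75 CPM in CBLB502 (log2 fold change -2.82 ± 0.552, adjusted p = 0.00348). Without combination library 5 the log2 fold change of Zbp1 was -3.64. The Zbp1 and Acsl4 calls were lost with the 9 treated kidney libraries fitted together (adjusted p = 0.0722 and 0.0712), and that of Zbp1 also with all 12 (0.0737).

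Markers of the nephron are given by segment, and no test between the segment lists was run. Because whole kidney was sequenced, fewer cells of a type and less RNA per cell cannot be told apart for any of the markers that follow. The proximal tubule lists moved both ways, the transporters in shares near those over all genes: of 29 transporters 8 rose and 9 fell (median -0.14, -0.11 without the length trend, where 6 rose and 11 fell), and of 21 enzyme and brush border genes 7 rose and 9 fell (median -0.24, -0.14 without the length trend, where 5 rose and 9 fell). The transporters summed to 13350 to 14020 CPM in the combination and 13910 to 17840 CPM in CBLB502, ranges that overlapped. Without CBLB502 library 4 or 5, 5 transporters rose, and in the fit of 12 libraries 3 rose and 4 fell, with 2 enzyme genes lower.

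The most lowered transporter was Slc7a13, an amino acid exchanger of the last, straight segment of the proximal tubule, at 76.2, 35.9 and 47.9 CPM in the combination and 714, 668 and 688 CPM in CBLB502, 12.9-fold lower (log2 fold change -3.69 ± 0.262, adjusted p = 3.91e-05). Gatm, which makes the first step of creatine synthesis, was at 46.2, 58.9 and 64.7 CPM in the combination against 429, 592 and 624 CPM in CBLB502 (log2 fold change -3.28 ± 0.186, adjusted p = 2.37e-05), and Mep1b, a brush border protease gene, was 2.84-fold lower (adjusted p = 0.000194). The related amino acid transporter gene Slc7a12 was at 1.82, 1.03 and 1.93 CPM in the combination and 44.4, 9.78 and 7.38 CPM in CBLB502, where library 4 was far above the other two (log2 fold change -3.68 ± 0.703, adjusted p = 0.00307). Without that library the log2 fold change was -2.42. Other proximal genes rose. Pck1, the gluconeogenic enzyme gene, was at 9187, 7551 and 8627 CPM in the combination and 928, 1104 and 1991 CPM in CBLB502, 6.31-fold higher (log2 fold change 2.66 ± 0.28, adjusted p = 0.00017), the sulfate transporter gene Slc13a1 was 3.93-fold higher and the amino acid transporter gene Slc6a18 3.02-fold (adjusted p = 7.34e-05 and 3.72e-05). The calls of Mep1b and Slc7a12 were lost with the 12 and with the 9 kidney libraries (highest adjusted p 0.234 and 0.112), and that of Gatm with the 9 (0.0521).

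The carriers that move platinum drugs and organic cations changed in part. Slc22a2, which encodes the cation transporter OCT2 that takes cisplatin into proximal tubule cells, was at 239.7, 154 and 185 CPM in the combination and 212, 209.5 and 252 CPM in CBLB502, and the groups overlapped (log2 fold change -0.22 ± 0.162, adjusted p = 0.295). It was called lower without combination library 4 (adjusted p = 0.0449) and without the length trend (adjusted p = 0.045). Slc22a6, the organic anion transporter OAT1, was not called either (log2 fold change 0.15 ± 0.19, adjusted p = 0.558), but was called higher without CBLB502 library 6 (log2 fold change 0.45, adjusted p = 0.028). Abcb1b, an efflux pump of the P-glycoprotein family, was at 40.5, 25.9 and 39.5 CPM in the combination and 13.8, 8.07 and 8.0 CPM in CBLB502 (log2 fold change 1.83 ± 0.257, adjusted p = 0.000689), and the efflux pump gene Abcc4 was 2.05-fold lower (adjusted p = 0.00225). Of 15 genes of the list 3 rose and 5 fell (median -0.24, 0.05 without the length trend, where 4 rose and 4 fell), with 3 lower without CBLB502 library 5 and 2 in the fit of 12 libraries.

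In the thick ascending limb 4 of 14 genes fell and 2 rose (median -0.52, -0.42 without the length trend, where 2 rose and 5 fell). Casr, the calcium-sensing receptor gene, was at 2.8, 4.44 and 4.81 CPM in the combination and 29.9, 21.9 and 15.7 CPM in CBLB502, 5.6-fold lower (log2 fold change -2.48 ± 0.287, adjusted p = 0.000255). Egf, the growth factor that this segment secretes into urine, was at 138, 359 and 526 CPM in the combination, with library 4 lowest, and 1261, 1138 and 846 CPM in CBLB502 (log2 fold change -1.66 ± 0.414, adjusted p = 0.0108). Kcnj1, the potassium channel ROMK, was 2.99-fold lower (adjusted p = 6.69e-05). Umod, the uromodulin gene whose per-library levels were given above, missed the threshold (log2 fold change -0.79 ± 0.308, adjusted p = 0.0637) but was called without CBLB502 library 6 (adjusted p = 0.0481) and without the length trend (adjusted p = 0.0257). Without CBLB502 library 6, 7 members of the list fell. The 2 that rose were the tight junction genes Cldn14 and Cldn16, with Cldn14 at 1.31, 3.49 and 1.9 CPM in the combination against 0, 0.167 and 0.0656 CPM in CBLB502 (log2 fold change 4.83 ± 0.865, adjusted p = 0.00224). The Egf and Kcnj1 calls were lost with the 12 kidney libraries and with the 9 (highest adjusted p 0.287 and 0.177), and Egf narrowly without the length trend (adjusted p = 0.0503).

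Of the tubule segment lists, the distal convoluted tubule had the largest share of members lower. Slc12a3, the sodium chloride cotransporter that thiazides block and the defining gene of the segment (ENSMUSG00000031766, chromosome 8, bases 94329201 to 94366214), was at 69.3, 118 and 96.5 CPM in the combination, against 983, 1169 and 1246 CPM in CBLB502. The highest combination library stood far below the lowest CBLB502 library, a 12-fold difference (log2 fold change -3.58 ± 0.206, adjusted p = 2.37e-05). The calcium-binding protein gene Pvalb was at 0.669, 1.79 and 1.06 CPM and 15.5, 14.1 and 22 CPM in the same order, 14.7-fold lower (log2 fold change -3.87 ± 0.368, adjusted p = 0.000106), and the sodium calcium exchanger gene Slc8a1 at 18.2, 18.7 and 20.4 CPM and 123, 118 and 99.96 CPM (log2 fold change -2.57 ± 0.11, adjusted p = 1.2e-05). Of 14 genes 11 fell and 1, Fxyd2, rose (median -1.2), and without the length trend the counts were 11 and 1 (median -1.06). The Fxyd2 call was lost without CBLB502 library 4 or 5, without combination library 6, and with the 12 and the 9 kidney libraries. The list summed to 2900 to 3025 CPM in the combination and 4111 to 4664 CPM in CBLB502, without overlap.

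In the collecting duct, principal cell genes were mixed, with 4 of 13 higher and 3 lower (median -0.13, 0.08 without the length trend, where 2 rose and 4 fell). In the fit of 12 libraries 2 of them rose and 0 fell. The lowest log2 fold change in the list was -0.76, and the members named next all rose. Aqp2, the water channel that vasopressin regulates, was at 429.5, 602 and 418 CPM in the combination and 162, 209.8 and 102 CPM in CBLB502, 3.06-fold higher (log2 fold change 1.62 ± 0.259, adjusted p = 0.0013). Sgk1, a kinase induced by aldosterone and glucocorticoids, was at 330, 245 and 391 CPM and 56.7, 80.02 and 94.7 CPM in the same order (log2 fold change 2.06 ± 0.224, adjusted p = 0.000196). The smaller rise of Fxyd4, a regulator of the sodium pump (log2 fold change 0.98 ± 0.218, adjusted p = 0.00651), was lost without the length trend (adjusted p = 0.0649). Of 13 intercalated cell genes 6 fell and 1, the proton pump subunit gene Atp6v0a4, rose (median -0.25, -0.65 without the length trend, where 1 rose and 9 fell). Insrr, a sensor of alkaline pH, Slc4a1, the bicarbonate exchanger AE1, and Atp6v1b1, another proton pump subunit, fell 3.29-fold (adjusted p = 6.07e-05), 3.03-fold (adjusted p = 0.000224) and 2.55-fold (adjusted p = 2.76e-05). In the fit of 12 libraries 1 intercalated cell gene fell, and the calls of Slc4a1 and Atp6v1b1 were lost (highest adjusted p 0.288 and 0.1).

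Podocyte genes, from the filtration barrier of the glomerulus, fell in 10 of 13 cases and 1 rose (median -2.13, -1.43 without the length trend, where 2 rose and 9 fell). The higher call was lost with the 12 and with the 9 kidney libraries, under the replicate block, without CBLB502 library 4 or 5 and without combination library 4 or 5. Wt1, a transcription factor that marks podocytes, was at 1.12, 1.73 and 1.92 CPM in the combination, against 7.84, 10.6 and 12.2 CPM in CBLB502, 6.43-fold lower and without overlap (log2 fold change -2.68 ± 0.278, adjusted p = 0.000155), and Kirrel, a binding partner of nephrin, was 5.82-fold lower (adjusted p = 0.000142). Nphs1, nephrin itself, was much closer between the groups, at 25.7, 28.4 and 21.9 CPM in the combination and 27.6, 37.2 and 38.8 CPM in CBLB502, which overlapped (log2 fold change -0.45 ± 0.154, adjusted p = 0.0408). That call was lost without CBLB502 library 5 or 6 (adjusted p = 0.132 and 0.185), without combination library 4 or 6 (adjusted p = 0.0832 and 0.141) and without the length trend (adjusted p = 0.539), and Nphs1 overlaps an antisense gene.

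**Figure D4:**
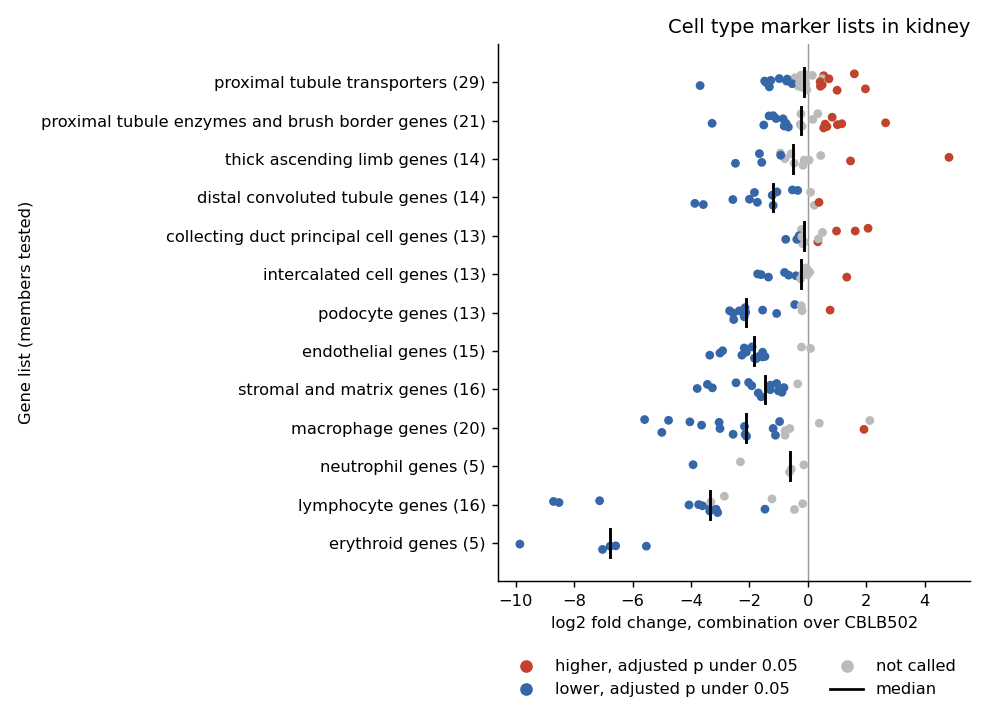
Log2 fold change, combination over CBLB502, of every tested member of 13 cell type lists, where points are genes (red higher and blue lower at an adjusted p under 0.05, grey not called), black ticks are list medians, and the number of members tested is in parentheses. The proximal tubule lists straddle 0 (medians -0.14 and -0.24), while the podocyte (-2.13), endothelial (-1.83), macrophage (-2.12), lymphocyte (-3.34) and erythroid (-6.77) lists lie left of it.

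Most endothelial, stromal, macrophage, lymphocyte and erythroid markers were lower in the combination. Of 15 endothelial genes 13 fell and the other 2, Esam and Egfl7, did not pass the test (median -1.83, -1.53 without the length trend, where 0 rose and 11 fell). Kdr, the VEGF receptor 2, was at 2.54, 6.37 and 4.32 CPM in the combination, against 60.5, 49.8 and 25.9 CPM in CBLB502, 10.3-fold lower (log2 fold change -3.36 ± 0.402, adjusted p = 0.000303). Erg, an endothelial transcription factor, and Ehd3, a marker of glomerular endothelium, were 8.06-fold lower (adjusted p = 0.00112) and 7.59-fold lower (adjusted p = 0.000445). Esm1, a proteoglycan gene of endothelium that is on no list, was at 0.156, 2.64 and 1.39 CPM and 21.1, 20.4 and 12.5 CPM (log2 fold change -3.69 ± 0.732, adjusted p = 0.00373). The 15 genes summed to 102 to 289 CPM in the combination and 390 to 750.4 CPM in CBLB502, and combination library 4 was lowest for Kdr and Esm1. Without combination library 5 the log2 fold change was -4.52 for Esm1 and -3.6 for Erg.

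Stromal and matrix genes fell in 15 of 16 cases (median -1.47, -1.18 and 12 lower without the length trend). The collagen gene Col3a1 was at 3.56, 3.05 and 3.02 CPM in the combination and 55.5, 35.4 and 42.2 CPM in CBLB502, 13.8-fold lower (log2 fold change -3.79 ± 0.19, adjusted p = 1.67e-05), the elastic fibre gene Fbln5 was 10.9-fold lower and Col1a2 5.49-fold (adjusted p = 6.69e-05 and 8.82e-05). Fitted with all 12 kidney libraries, 5 endothelial and 7 stromal genes were lower.

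Of 20 macrophage genes 14 fell and 1 rose (median -2.12, -1.88 without the length trend, where 1 rose and 14 fell), with 6 lower in the fit of 12 libraries. Cx3cr1, the fractalkine receptor of resident macrophages, was at 0.265, 0.37 and 0.329 CPM in the combination and 6.18, 5.7 and 4.05 CPM in CBLB502, 16.5-fold lower (log2 fold change -4.04 ± 0.304, adjusted p = 4.43e-05). Adgre1, which encodes the F4/80 antigen, was at 0.14, 0.849 and 0.83 CPM and 10.7, 8.12 and 3.87 CPM in the same order (log2 fold change -3.64 ± 0.642, adjusted p = 0.0021). Neither gene overlapped between groups. The member that rose was Cd14, the endotoxin co-receptor, at 8.23, 19.3 and 13.3 CPM in the combination and 4.66, 3.95 and 2.16 CPM in CBLB502 (log2 fold change 1.92 ± 0.372, adjusted p = 0.00329). Aif1 was called lower (adjusted p = 0.0459), and the call was lost when any of CBLB502 libraries 4, 5 and 6 or combination library 5 or 6 was left out (adjusted p = 0.111, 0.102, 0.0977, 0.0681 and 0.0733). The Adgre1 call was lost with the 12 kidney libraries and with the 9 (highest adjusted p 0.105).

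Lymphocyte genes were scarce in both groups, at summed levels of 3.36 to 4.47 CPM in the combination and 21.1 to 26.2 CPM in CBLB502 over 20 genes. In the combination 7 of the 20, among them the T cell genes Cd3e, Cd3g and Cd4, had no count in any library, while each had counts in CBLB502, with Cd4 at 0.527, 1.37 and 0.246 CPM. Of 16 genes tested 11 fell (median -3.34, also with genes absent from the combination set to their bound, and -3.8 without the length trend, where 0 rose and 12 fell). The immunoglobulin genes Igkc and Ighm were 12.2-fold lower (adjusted p = 0.000156) and 10.2-fold lower (adjusted p = 0.00109), with Igkc at 0.373, 0.494 and 0.20 CPM in the combination and 4.71, 4.61 and 3.71 CPM in CBLB502. At these depths the count of genes lower was 7, 5 and 6 without CBLB502 library 4, 5 and 6, 4 in the fit of 12 libraries and 6 with no filter on low counts.

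Globin genes, which report red blood cells in the tissue, were 4 of the 10 genes named as lowest. Hbb-bs, an adult beta globin gene, was at 1.35, 5.38 and 1.45 CPM in the combination, against 94.1, 374 and 316 CPM in CBLB502, 95.7-fold lower (log2 fold change -6.58 ± 0.75, adjusted p = 0.000241). Combination library 5 was above the other two, and without it the log2 fold change was -7.54 for Hbb-bs and -7.37 for Hba-a1. Hba-a2, Hbb-bt and Hba-a1 were 944-fold lower (adjusted p = 7.53e-05), 131-fold lower (adjusted p = 7.47e-05) and 110-fold lower (adjusted p = 0.000278), though limma-voom gave Hba-a2 an adjusted p of 0.0625. All 5 erythroid genes tested fell, including Alas2, the first enzyme of haem synthesis in red cells (log2 fold change -5.53). CBLB502 library 4 was lowest of its group for all 4 globin genes, at 39.2, 174 and 144 CPM for Hbb-bt across libraries 4, 5 and 6. Globin copies are near-identical, and reads can be split between them.

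Genes of fatty acid oxidation rose in most cases. Of 28 on the list 24 rose and 1, the fatty acid binding protein gene Fabp1, fell (median 1.1, 0.94 without the length trend, where 21 rose and 1 fell). Cyp4a14, a fatty acid hydroxylase and target of PPAR alpha, was at 1822, 1915 and 2532 CPM in the combination, against 136, 86.7 and 219 CPM in CBLB502, 14.2-fold higher (log2 fold change 3.83 ± 0.336, adjusted p = 7.52e-05). Angptl4, an inhibitor of lipoprotein lipase, was at 242, 326 and 372 CPM and 25.6, 25.8 and 41.7 CPM in the same order (log2 fold change 3.34 ± 0.241, adjusted p = 4.01e-05), and Pdk4, the kinase that keeps pyruvate from oxidation, at 116, 178 and 276 CPM and 21.3, 19.8 and 16 CPM (log2 fold change 3.32 ± 0.304, adjusted p = 8.98e-05). The groups did not overlap in these 3. The list summed to 15050 to 17950 CPM in the combination and 5212 to 7204 CPM in CBLB502.

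Genes of fasting and glucocorticoid response rose in 14 of 17 cases and 1, the cell cycle inhibitor gene Cdkn1c, fell (median 1.35, 1.58 without the length trend, where 14 rose and 1 fell). Fkbp5, a co-chaperone of the glucocorticoid receptor and one of its targets, was at 461, 462 and 411 CPM in the combination and 68.7, 76.7 and 71.4 CPM in CBLB502, 6.15-fold higher (log2 fold change 2.62 ± 0.096, adjusted p = 1.06e-05). Igfbp1, a secreted binding protein of insulin-like growth factors, was at 11.3, 13 and 11.7 CPM and 0.744, 2.04 and 1.2 CPM in the same order (log2 fold change 3.18 ± 0.349, adjusted p = 0.000202). Pdk4 and Sgk1, described above, are also on this list. Of 15 glycolysis genes 7 rose and the other 8 did not pass the test (median 0.35, 0.56 without the length trend, where 9 rose and 0 fell), with 4 higher in the fit of 12 libraries. Tpi1, Ldha and Aldoa rose 2.08-fold (adjusted p = 8.57e-05), 1.85-fold (adjusted p = 0.00023) and 1.68-fold (adjusted p = 0.000445), and Aldoa is uncertain because its symbol stands on several IDs.

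Of 22 cholesterol synthesis genes 12 fell and 5 rose (median -0.58, -0.31 without the length trend, where 4 rose and 10 fell), with 3 lower and 2 higher in the fit of 12 libraries. Idi1, an isomerase of the isoprenoid steps, was at 16.3, 14 and 13.5 CPM in the combination, against 83.8, 88.8 and 77.3 CPM in CBLB502, 5.7-fold lower (log2 fold change -2.51 ± 0.109, adjusted p = 1.2e-05). Insig1, which holds back the sterol-sensing factor SREBP, was 2.36-fold higher (adjusted p = 0.000113). Of 14 fatty acid synthesis genes 4 fell and 2 rose (median -0.2, -0.15 without the length trend, where 2 rose and 3 fell). The desaturase gene Scd1 was at 194, 110.1 and 182 CPM in the combination and 323, 359.9 and 289 CPM in CBLB502 (log2 fold change -1.0 ± 0.202, adjusted p = 0.00407), and Dgat2, which makes triglyceride, was 2.19-fold higher (adjusted p = 0.000447). Both calls were lost with 12 kidney libraries (highest adjusted p 0.478 for Scd1 and 0.112 for Dgat2). Fasn, the fatty acid synthase gene, overlapped between the groups, at 76.5, 32.3 and 36.8 CPM in the combination and 70.8, 161 and 86.2 CPM in CBLB502 (log2 fold change -1.13 ± 0.39, adjusted p = 0.0421). The Fasn call was lost without CBLB502 library 5 or 6 and without combination library 5 or 6 (adjusted p = 0.17, 0.0684, 0.124 and 0.135).

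The respiratory chain split by genome of origin. All 20 nuclear genes of the chain were called, 18 higher and 2, Ndufs1 and Sdha, lower (median 0.9), while of 13 protein genes on the mitochondrial genome 11 fell and the other 2, mt-Nd1 and mt-Nd6, did not pass the test (median -0.72). The complex I subunit gene Ndufb8 was at 1001, 1341 and 957 CPM in the combination, against 220.5, 204 and 227 CPM in CBLB502, 5.07-fold higher (log2 fold change 2.34 ± 0.145, adjusted p = 2.75e-05), and Cox4i1 of complex IV at 2234, 2642 and 2177 CPM and 661, 597 and 759 CPM in the same order (log2 fold change 1.81 ± 0.13, adjusted p = 4.01e-05). Cox7a2, also of complex IV, was 3.09-fold higher (adjusted p = 4.88e-05). On the mitochondrial genome mt-Nd4 was at 5051, 5010 and 4736 CPM in the combination and 10080, 11290 and 11530 CPM in CBLB502 (log2 fold change -1.15 ± 0.111, adjusted p = 0.000114), and mt-Nd4l and mt-Atp8, which share bases with mt-Nd4 and mt-Atp6, were 3.91-fold lower (adjusted p = 3.81e-05) and 2.83-fold lower (adjusted p = 4.37e-05). Without the length trend the nuclear list had 15 higher and 1 lower (median 0.52) and the mitochondrial list 13 lower (median -1.44). In the fit of 12 kidney libraries 4 mitochondrial genes were lower.

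All 20 ribosomal protein genes tested rose, with log2 fold changes of 0.5 to 2.32 (median 1.38). Rps14 was at 1312, 1542 and 1239 CPM in the combination, against 265, 245 and 308 CPM in CBLB502, 5.0-fold higher (log2 fold change 2.32 ± 0.131, adjusted p = 2.37e-05), and Rpl19 and Rpl11 were 4.02-fold higher (adjusted p = 2.37e-05) and 3.94-fold higher (adjusted p = 2.59e-05). Ribosomal protein genes have short transcripts and many processed copies that can share reads. Without the length trend 18 of the 20 rose (median 0.96).

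Endocrine genes of the kidney changed in both directions. Cyp27b1, which makes active vitamin D, was at 125, 49.9 and 37.2 CPM in the combination, with library 4 highest, against 2.04, 2.83 and 4.02 CPM in CBLB502, 23.9-fold higher (log2 fold change 4.58 ± 0.505, adjusted p = 0.000208). Cyp24a1, which breaks active vitamin D down, was also higher, at 115, 126 and 189 CPM in the combination and 36.3, 7.39 and 11.4 CPM in CBLB502 (log2 fold change 2.96 ± 0.551, adjusted p = 0.0027). Without CBLB502 library 4, the highest of its group, the log2 fold change of Cyp24a1 was 3.93, and without combination library 4 that of Cyp27b1 was 3.88. Kl, which encodes klotho, the co-receptor of the phosphate hormone FGF23, was lower at 184, 160.5 and 175 CPM in the combination against 486, 534 and 578 CPM in CBLB502, 3.08-fold in the means (log2 fold change -1.62 ± 0.102, adjusted p = 2.78e-05). The groups did not overlap in any of the 3, and the Kl call was lost with the 9 treated kidney libraries (adjusted p = 0.0596). Renin, from Ren1, was at 17.3, 43.8 and 39.6 CPM in the combination and 71.7, 106 and 99.7 CPM in CBLB502 (log2 fold change -1.46 ± 0.319, adjusted p = 0.00593), while its substrate gene Agt was 3.81-fold higher (adjusted p = 3.29e-05). Of 10 genes tested 3 rose and 5 fell (median -0.32, -0.18 without the length trend, where 3 rose and 4 fell), with 2 lower in the fit of 12 libraries.

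Clock genes moved both ways, in shares near those over all genes, with 6 of 19 higher and 5 lower (median 0.18, 0.48 without the length trend, where 8 rose and 3 fell). The clock genes named next all rose, while the lowest log2 fold change in the list was -1.7. Noct, which encodes nocturnin, was at 220.4, 134 and 157 CPM in the combination and 22.3, 16.1 and 18.6 CPM in CBLB502. It was 8.94-fold higher (log2 fold change 3.16 ± 0.209, adjusted p = 3.25e-05). The repressor genes Nfil3 and Cry1 were 4.75-fold higher (adjusted p = 0.0011) and 4.12-fold higher (adjusted p = 0.000972). The hour at which tissue was taken is not given in the labels, and its part was not tested. Of 5 androgen-responsive kidney genes Cyp4b1 and Odc1 fell 1.75-fold (adjusted p = 0.00197) and 1.49-fold (adjusted p = 0.00968) and the other 3 did not pass the test (median -0.26, -0.65 without the length trend, where 0 rose and 3 fell); both calls were lost with 12 kidney libraries (highest adjusted p 0.126 and 0.0852). The Y-linked genes Eif2s3y and Kdm5d were present in all 6 libraries, at 24.1, 26.7 and 40.9 CPM for Eif2s3y in the combination and 52.5, 58.2 and 47.2 CPM in CBLB502 (log2 fold change -0.78 ± 0.194, adjusted p = 0.0106). Of 5 sex-linked genes 3 fell (median -0.78, -0.11 without the length trend, where 1 rose and 2 fell). Log2 fold changes in this list ran from -3.66 to 0.19, and the lowest was that of neither Eif2s3y nor Kdm5d. The Kdm5d call was lost without the length trend (adjusted p = 0.592).

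Ly6f and Mtarc1, like Il1f6, are on no list and were among the 10 genes named as highest. Ly6f, a member of the Ly6 family of membrane-anchored proteins, was at 15.1, 28 and 24.1 CPM in the combination and 0.17, 0.251 and 0.475 CPM in CBLB502, 75-fold higher (log2 fold change 6.22 ± 0.403, adjusted p = 3.08e-05). Mtarc1, a mitochondrial enzyme that reduces N-hydroxylated compounds, was at 29.1, 26.1 and 48.9 CPM and 1.52, 1.35 and 0.803 CPM in the same order, 28.3-fold higher (log2 fold change 4.82 ± 0.333, adjusted p = 3.6e-05). Of the 129 genes chosen for naming, 39 overlap another gene in the table, Cdkn1a, Fgg, Plk3 and Mt2 among them, and because no source used here states that reads were counted by strand, such genes are uncertain.

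The same contrast in liver, from 6 libraries that share none with the kidney, allowed the change itself to be compared between organs. Across 20548 genes tested in 6 kidney and 6 liver libraries the kidney change was higher than the liver change for 3572 genes (17.4%) and lower for 2544 (12.4%), 29.8% in either direction. The difference is given as kidney minus liver, ± SE, and levels as means ± SD (n = 3). Each SE is again derived from the F of its own test. Cdkn1a rose in both organs, by 5.6 ± 0.212 in kidney and 6.57 ± 0.222 in liver on the log2 scale, and the difference passed the test (-0.96 ± 0.252, adjusted p = 0.0125). Mdm2 separated the organs: its liver level was 89.3 ± 20.8 CPM in the combination and 22.5 ± 4.37 CPM in CBLB502, a log2 change of 2.0 ± 0.209, against 0.17 ± 0.202 in kidney (difference -1.84 ± 0.288, adjusted p = 0.000538).

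The metallothioneins rose more in liver. Mt1 was at 1548 ± 521 CPM in combination liver and 17.4 ± 1.17 CPM in CBLB502 liver, and at 549.9 ± 65.4 and 74.2 ± 7.9 CPM in the kidney groups in that order (difference -3.58 ± 0.286, adjusted p = 1.06e-05). For Mt2 the log2 changes were 3.53 ± 0.37 in kidney and 8.36 ± 0.465 in liver (difference -4.83 ± 0.508, adjusted p = 4.54e-05). Hmox1 fell in liver, with 2.49 ± 0.954 CPM in combination liver and 23.2 ± 7.34 CPM in CBLB502 liver (log2 change -3.21 ± 0.304). Its log2 change in kidney was 0.89 ± 0.273 (difference 4.1 ± 0.406, adjusted p = 3.48e-05). The kidney call was lost in 4 of 17 alternatives of the kidney comparison. Saa1 changed by 7.59 ± 0.819 in kidney and 3.67 ± 0.597 in liver (difference 3.93 ± 0.979, adjusted p = 0.00957), from a CBLB502 level of 0.188 ± 0.122 CPM in kidney and 39 ± 23 CPM in liver. Cyp4a14 had a difference of 1.62 ± 0.546, adjusted p = 0.042, lost in 11 of 19 alternatives. Lcn2 (-0.76 ± 0.602, adjusted p = 0.384) and Mki67 (-0.07 ± 0.726, adjusted p = 0.998) were not shown to differ.

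**Figure D5:**
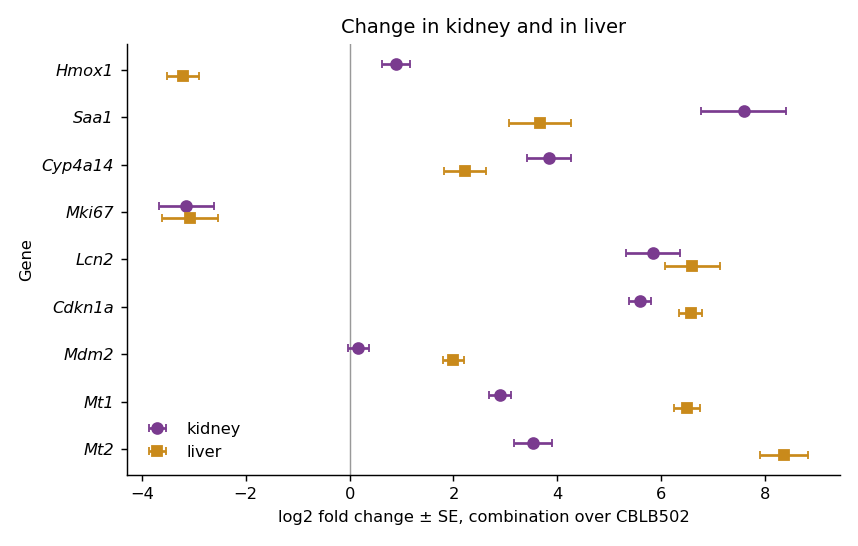
Log2 fold change, combination over CBLB502, of 9 genes in kidney (circles) and liver (squares). Bars are 1 SE, derived from the test F in the fit of 6 kidney and 6 liver libraries. Genes run from the largest kidney excess (Hmox1, difference 4.10) to the largest liver excess (Mt2, difference -4.83), and Mki67 has nearly the same change in both organs (difference -0.07).

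The organ difference was called higher in kidney for most members of these lists: 13 of 20 tubular injury genes (1.63), 20 of 28 fatty acid oxidation genes (1.34), 17 of 21 interferon-stimulated genes (1.95), 18 of 26 NRF2 and glutathione genes (1.01), 9 of 14 fatty acid synthesis genes (1.23), 15 of 20 nuclear respiratory chain genes (0.76) and 19 of 20 ribosomal protein genes (0.96), with the median difference in parentheses. The interferon-stimulated genes had a median log2 fold change of 0.03 in kidney and -2.19 in liver, and the fatty acid synthesis genes -0.2 in kidney and -1.33 in liver, and in both lists it was the liver median that lay furthest from 0. The medians were 1.8 in kidney and 0.28 in liver for the tubular injury genes, 1.11 in kidney and 0.04 in liver for the fatty acid oxidation genes, 0.76 in kidney and -0.26 in liver for the NRF2 and glutathione genes, 0.92 in kidney and 0.15 in liver for the nuclear respiratory chain genes and 1.39 in kidney and 0.33 in liver for the ribosomal protein genes. Without the length trend the counts higher, in the order of the lists above, were 12, 14, 17, 15, 9, 7 and 14, and over all genes 2562 were higher and 2722 lower. The mitochondrially encoded protein genes went the other way, with 0 of 13 higher and 7 lower in kidney (median difference -0.53), and 12 lower without the length trend. Their medians were -0.7 in kidney and -0.29 in liver. The p53 targets had 7 of 29 higher and 9 lower (median difference -0.07), with medians of 1.73 in kidney and 1.75 in liver. Endothelial, macrophage and lymphocyte medians were -1.82, -2.11 and -3.32 in kidney and -3.3, -3.44 and -6.12 in liver.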

How the data were processed

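RNA was extracted with Trizol and sequenced as Illumina libraries, per the labels' protocols. Raw counts and FPKM were deposited by the authors for 33272 Ensembl gene IDs, as the table's header names them. Adapter and quality tools are cutadapt 1.9 and FastQC in the submitters' processing notes. Aligner, counting program, strand setting and genome build are not given in the sources used here. Of the IDs, 99.65% are in GENCODE vM21 (GRCm38), and 99.7% of those share a start or end with it. Coordinates are as deposited. The 6 kidney count columns are numbered 4 to 6 and the labelled replicates 1 to 3, so columns were tied to groups and not to single samples. Of the FPKM columns 9 belong to treated kidney and were not used. The deposited FPKM of the other libraries gave gene lengths, from which kidney FPKM were computed for the naming rule alone.

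Counts were tested with edgeR 4.0.16 in R 4.3.3 (filterByExpr, TMM scaling, quasi-likelihood test, Benjamini-Hochberg threshold 0.05) on the 6 kidney libraries, and on 12 libraries for the organ difference. CPM are on TMM-scaled library sizes. Folds are ratios of mean CPM, and where a group had no count the floor was 3 counts over that group. The floors cover counting error only. Depth of 54.09 to 76.5 M counts per library sets the precision for low genes. Alternatives were median-of-ratios scaling, other filters, DESeq2 1.42.0, limma-voom (limma 3.58.1), other sets of libraries, a block by column number, and removal of a trend on gene length (natural spline, 5 df) or on length and GC. The fits were tested on simulated data.

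The 41 gene lists and the members named were chosen with earlier results of these data known. Genes named were the 10 highest and 10 lowest called changes without overlap and with at least 5 FPKM, up to 3 called members per list with at least 1 FPKM, and 15 genes named whatever their result. Members named outside the rule were chosen after their values were seen, as was each gene that went against its list. Promoters are from RefSeq, with all 5 genes matched by symbol. A few genes chosen this way are left unreported.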

Additional observations from a re-analysis of the deposited data

Results flagged for a closer look

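For 7 genes the change in the combination over CBLB502 differed between kidney and liver by the test of the difference itself, given as kidney minus liver on the log2 scale. Cdkn1a had a difference of -0.96, Mdm2 one of -1.84, Mt1 one of -3.58 and Mt2 one of -4.83, so that the change of these 4 was smaller in kidney. Hmox1 had a difference of 4.10, with a fall in liver (log2 change -3.21) and a smaller rise in kidney (0.89). The kidney call was lost in 4 of 17 alternatives of the kidney comparison. Saa1 had a difference of 3.93, which limma-voom did not call (adjusted p = 0.392). Cyp4a14 had a difference of 1.62, which 11 of 19 alternatives did not call.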

How the results depend on the processing

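The counts of genes higher (4605) and lower (4891) in the kidney stayed within 1.5 times of these values under several settings. These were median-of-ratios scaling, no mitochondrial genes, no filter, a filter of 10 CPM in 3 libraries, DESeq2 and limma-voom. The filter of 10 CPM tested only 9767 genes, with 3368 higher and 3279 lower. It kept 63.7% of the main calls, as genes it left out could not be called. The counts moved further with all 12 kidney libraries fitted together, to 3021 higher and 1827 lower (62.3% of calls higher, against 48.5%). With the 9 treated kidney libraries they were 2809 higher and 2061 lower. Of the main calls only 50.7% were kept in the fit of 12 and 51.0% in the fit of 9. The cause was not tested. The untreated kidney libraries had 60.693 to 68.963% mitochondrial counts, and they are in the fit of 12 but not in the fit of 9. Leaving out 1 library at a time gave 3933 to 4918 higher and 3707 to 4577 lower, and 78.3 to 87.9% of the calls were kept. The length trend alternatives were chosen after seeing the data. They gave 4380 higher and 4060 lower, and with GC added 4408 and 4067.

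The organ difference (3572 higher, 2544 lower) ranged over 2949 to 3473 higher and 2157 to 2513 lower with 1 library left out. Without the length trend it was 2562 higher and 2722 lower (48.5% of calls higher, against 58.4%), and the median of all genes went to -0.08, against 0.09.

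Of 129 named genes 125 were called, and 89 of these kept their call in every alternative run. The call was lost for 27 with 12 kidney libraries, for 11 without the length trend, for 4 under the block and for 6 with a library left out. None was reversed. Among losses not given above, 12 kidney libraries ended the calls of Ighm (adjusted p = 0.0581), Gsta1 (0.0691) and Chac1 (0.0563), and the 9 treated ones those of Abcc4 (0.052), Kirrel (0.0513), Erg (0.0656) and Ighm (0.0895). Depth limits what can be said of lymphocyte and neutrophil genes, most of which had few counts.

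The treated kidney columns are numbered alike in both groups. Deviations from the group means of same-numbered libraries had correlations of -0.088, 0.008 and -0.013. Those of differently numbered libraries ran from -0.089 to 0.095. No pairing by number was shown, and so few libraries cannot exclude one. With the column number as a replicate block 4137 genes were higher and 4103 lower.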
